A study of Bos taurus with 22 samples.

Results

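The genes described here carry the adrenergic signal that opens fat stores through cyclic AMP. They are the β-adrenergic receptors ADRB1 and ADRB3, the α2-adrenergic receptor ADRA2A, the G protein α subunits GNAS and GNAI1, the protein kinase A subunits PRKACA, PRKACB and PRKAR2B, and the phosphodiesterase PDE3B. Members were all probe sets of the array whose single annotated gene symbol is 1 of these 9 genes. That gave 13 of 24016 bovine probe sets, which belong to 8 genes. No probe set carried PDE3B as its single symbol, so this gene was not analysed here.

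The series compared subcutaneous white adipose tissue of 11 Holstein heifers after and before their first calving. Postpartum samples were taken on day 14 of lactation (11 arrays), and prepartum samples 30 days before calving (11 arrays). All animals came from 1 farm, calved at 24 to 28 months of age and had no experimental diet, although the ration of late pregnancy was not that of lactation. RNA from each sample was hybridised to an Affymetrix bovine array, and the signal is the MAS5 intensity of a probe set. Stage relative to calving and ration cannot be told apart.

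Noradrenaline and adrenaline bind receptors on the fat cell. β receptors activate adenylyl cyclase through the stimulatory α subunit encoded by GNAS, and α2 receptors restrain the cyclase through inhibitory subunits such as that of GNAI1. Cyclic AMP releases the catalytic subunits of protein kinase A from their regulatory subunits, the kinase phosphorylates perilipin and hormone-sensitive lipase, and phosphodiesterases such as PDE3B, which insulin activates, remove the second messenger. In cattle, as in other mammals, adipose tissue releases fatty acids in early lactation, when milk energy exceeds intake.

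Some arrays stood apart. The summed signal of 14 skeletal muscle markers was 100518 in the postpartum array of cow 384 and 61253 in the prepartum array labelled cow 387, against medians of 2701 postpartum and 2368 prepartum. The same sum was 11195 in the postpartum array of cow 386. The sum of 2 kept keratinocyte markers ran from 194 to 288 postpartum, whereas it reached 6188 in the prepartum array of cow 341 and 2988 in that of cow 382. In the prepartum arrays of cows 330 and 331 it was 877 and 793. The 12 kept adipocyte markers had summed signals of 13301 to 29012 postpartum (median 24820) and of 20547 to 32788 prepartum (median 26186), so that markers of the labelled tissue were present on every array, and 2 of the 14 listed had no probe set. Their sum was lower postpartum in 8 of 11 cows and lowest in cow 384. The pair labelled cow 387 did not correlate like those of the other cows, and results are therefore also given without cows 384 and 387. The titles end in 1 of 2 codes of unstated meaning, so that 6 cows form array set 2 and the remaining 5 form array set 1.

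All changes below are on the log2(signal + 7.78) scale, postpartum minus prepartum, which understates the change of dim genes. A probe set was kept when its mean reached the 40th percentile, and it was called at a Benjamini-Hochberg adjusted p under 0.05 in limma's paired fit over 14410 kept probe sets. Of the 9 genes, 5 had a kept probe set (GNAS, GNAI1, PRKACA, PRKACB and PRKAR2B) and 3 were dim. None of the 5 was called by limma, against 3.71% of all genes, of which 1.55% were called higher and 2.16% lower. PRKAR2B alone had an unadjusted p under 0.05, as did 20.8% of all genes. It was also the single member probe set of 13 with an unadjusted p under 0.05 in an exact sign-flip test over the cows. That test was run on the members only, so that no share over all genes stands beside this count. The representative probe sets of the 5 genes had changes from -0.47 to 0.14, with 4 below 0 and a median of -0.12, against a median of 0.01 over 6984 genes. The medians were -0.22 and 0.01 without cows 384 and 387. In bulk tissue, fewer cells of a type and less RNA per cell cannot be told apart.

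**Figure D1:**
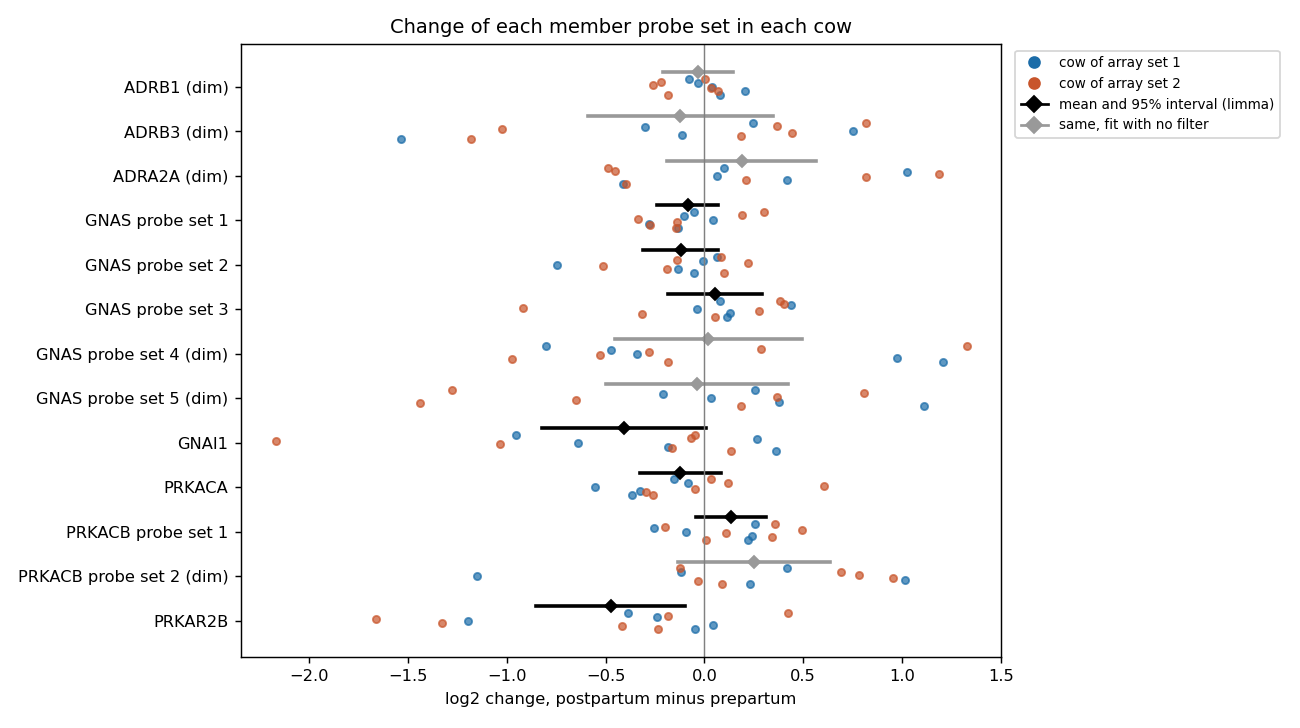
Paired log2 change of each of the 13 probe sets (postpartum minus prepartum, horizontal axis), with 1 point per cow coloured by array set, and the mean with its 95% interval above each row. Grey means and intervals belong to probe sets below the filter and come from the fit with no filter. The interval of PRKAR2B lies below 0 before adjustment, and those of the other probe sets span 0.

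The receptors were measured near the bottom of the scale. ADRB1 (NCBI gene 281604), the β1 receptor, had signals of 0.909 to 2.37 postpartum (median 1.496) and of 0.882 to 3.71 prepartum (median 1.39). All 22 arrays placed it below their own 20th percentile, so that these values have no usable order. In the fit with no filter its change was -0.03 (95% interval -0.21 to 0.15, limma adjusted p = 0.906), with 6 of 11 cows higher. The probe set thus gave no measurable difference, and the abundance of the receptor itself was not resolved.

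ADRB3 (gene 281606), the β3 receptor, which drives lipolysis in rodent fat, spread more widely from cow to cow. Its signal ran from 2.53 to 54.5 postpartum (median 14.3) and from 4.90 to 40.5 prepartum (median 22.5). The prepartum range lay within the postpartum range. Cows 386 and 387 were highest postpartum, at 54.5 and 53.9, and cow 347 was lowest in both periods. Its mean lay at the 34.8th percentile of the array, just under the filter. In 5 of 22 arrays the signal was below that array's own 20th percentile. The postpartum signal of cow 331 was 2.92. The mean change was -0.12 (95% interval -0.59 to 0.35, limma with no filter, adjusted p = 0.858). Single cows differed by -1.53 (cow 331), -1.18 (cow 330) and -1.03 (cow 384) at one end and by 0.82 (cow 387) at the other, with 6 of 11 higher postpartum.

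ADRA2A (gene 282135), the inhibitory α2A receptor, had signals of 2.28 to 21.9 postpartum (median 13.9) and of 1.62 to 22.6 prepartum (median 9.04). Its mean lay at the 24.6th percentile, and 7 of 22 arrays placed it below their 20th percentile. The change was 0.19 (95% interval -0.19 to 0.57, limma with no filter, adjusted p = 0.689), higher in 7 of 11 cows and from -0.49 in cow 387 to 1.19 in cow 384. Without cows 384 and 387 it was 0.15 (adjusted p = 0.730).

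For the 3 receptors together, the 95% intervals reached from a postpartum over prepartum fold of 0.665, the lower limit of ADRB3, to 1.48, the upper limit of ADRA2A, on the scale with the added constant. In the fit with no filter none of the 3 was called, against 1.58% of all 24016 probe sets.

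GNAS (gene 281793) encodes the α subunit that couples β receptors to adenylyl cyclase. Its locus makes several transcripts, and the files do not say which of them each of the 5 probe sets reads. Probe set 1 had signals of 3445 to 4536 postpartum (median 3780) and of 3611 to 4849 prepartum (median 3971). These were among the steadiest values of the group, with an SD between cows of 0.13 log2 units postpartum and 0.15 prepartum (n = 11 cows each), and the 2 periods overlapped. The change was -0.09 (95% interval -0.24 to 0.07, limma adjusted p = 0.563), lower in 8 of 11 cows. Its interval corresponds to a fold of 0.846 to 1.05.

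The 2 other kept GNAS probe sets differed from it in single cows. Probe set 2 had signals of 698 to 1693 postpartum (median 1245) and of 959 to 1625 prepartum (median 1417), with a change of -0.12 (95% interval -0.31 to 0.07, limma adjusted p = 0.495). Its lowest postpartum signal came from cow 341, whose change was -0.75. Probe set 3 had signals of 452 to 1200 postpartum (median 874) and of 532 to 1089 prepartum (median 863), with a change of 0.05 (95% interval -0.18 to 0.29, limma adjusted p = 0.828). Here the lowest postpartum signal came from cow 384, whose change was -0.92, although 8 of 11 cows were higher. The mean of probe set 3 was 0.15 without cow 384, 0.02 without cow 347 and 0.13 without cows 384 and 387 (adjusted p = 0.350), and without those 2 cows probe set 2 had -0.18 (adjusted p = 0.232) and probe set 1 had -0.10 (adjusted p = 0.374). Without cows 330, 331, 341 and 382, probe sets 1, 2 and 3 had changes of -0.08, -0.01 and 0.03.

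The 3 kept probe sets of GNAS moved the same way in few cows. Probe sets 1 and 2 shared a sign in 6 of 11 cows, probe sets 1 and 3 in 4, and probe sets 2 and 3 in 5. In cow 384 probe sets 1 and 3 were lower postpartum while probe set 2 was higher by 0.22. Probe sets 4 and 5 lay below the filter. Probe set 4 ran from 7.70 to 79.3 postpartum and from 11.9 to 41.0 prepartum, with a change of 0.02, and probe set 5 ran from 0.349 to 14.0 postpartum and from 1.58 to 15.3 prepartum, with a change of -0.04 (limma with no filter, adjusted p = 0.981 and 0.961).

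GNAI1 (gene 281790) encodes an inhibitory α subunit through which α2 and adenosine receptors hold the cyclase back. Its probe set was bright, with signals of 354 to 1919 postpartum (median 1476) and of 1367 to 2183 prepartum (median 1714). The prepartum arrays lay close together (SD 0.21 log2 units, n = 11), whereas the postpartum arrays were spread out (SD 0.71 log2 units, n = 11). The spread came from the low side: cow 384 stood at 354, cow 360 at 956, cow 382 at 1022 and cow 341 at 1194, all below the lowest prepartum signal of 1367, and so did cow 387 at 1324. The other 6 postpartum arrays lay within the prepartum range.

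The mean change of GNAI1 was -0.41 (SE 0.19, 95% interval -0.82 to 0.01), a 1.33-fold lower mean postpartum. It did not pass limma's test (unadjusted p = 0.0528, adjusted p = 0.260), and 8 of 11 cows were lower. Cow 384 contributed a change of -2.17. Without that cow the mean was -0.23, and without cows 384 and 387 it was -0.25 (adjusted p = 0.300). With the mean log2 value of the kept skeletal muscle marker probe sets as a covariate, it was -0.37 (adjusted p = 0.252).

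PRKAR2B (gene 282463) encodes RIIβ, the regulatory subunit of protein kinase A that predominates in rodent adipose tissue. Its probe set had signals of 16.4 to 66.3 postpartum (median 40.2) and of 23.4 to 91.8 prepartum (median 63.8). The 2 periods overlapped, but 9 of 11 cows were lower postpartum. Cow 384 was lowest postpartum, at 16.4, followed by cow 341 at 23.9 and cow 382 at 31.95. The prepartum array labelled cow 387 was the lowest of its period, at 23.4.

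The change of PRKAR2B was -0.47 (SE 0.18, 95% interval -0.85 to -0.10), a 1.39-fold lower mean postpartum and the largest difference among the 5 genes. It did not pass over all probe sets in limma's fit (unadjusted p = 0.0168, adjusted p = 0.148), and an exact two-sided sign-flip test of this gene alone gave p = 0.0273 (n = 11 cows, unadjusted). Cows 384, 382 and 341 had changes of -1.66, -1.33 and -1.19. The other cows lay between -0.42 and 0.04, except cow 387 at 0.42. Leaving out single cows gave means from -0.57 (without cow 387) to -0.36 (without cow 384), and the lowest adjusted p among them was 0.0832. Without cows 384 and 387 the mean was -0.44 (adjusted p = 0.0887). A constant of 32 in place of 7.78 gave -0.33, and a constant of 1 gave -0.55. PRKAR2B was not kept by a filter at the 60th percentile.

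**Figure D2:**
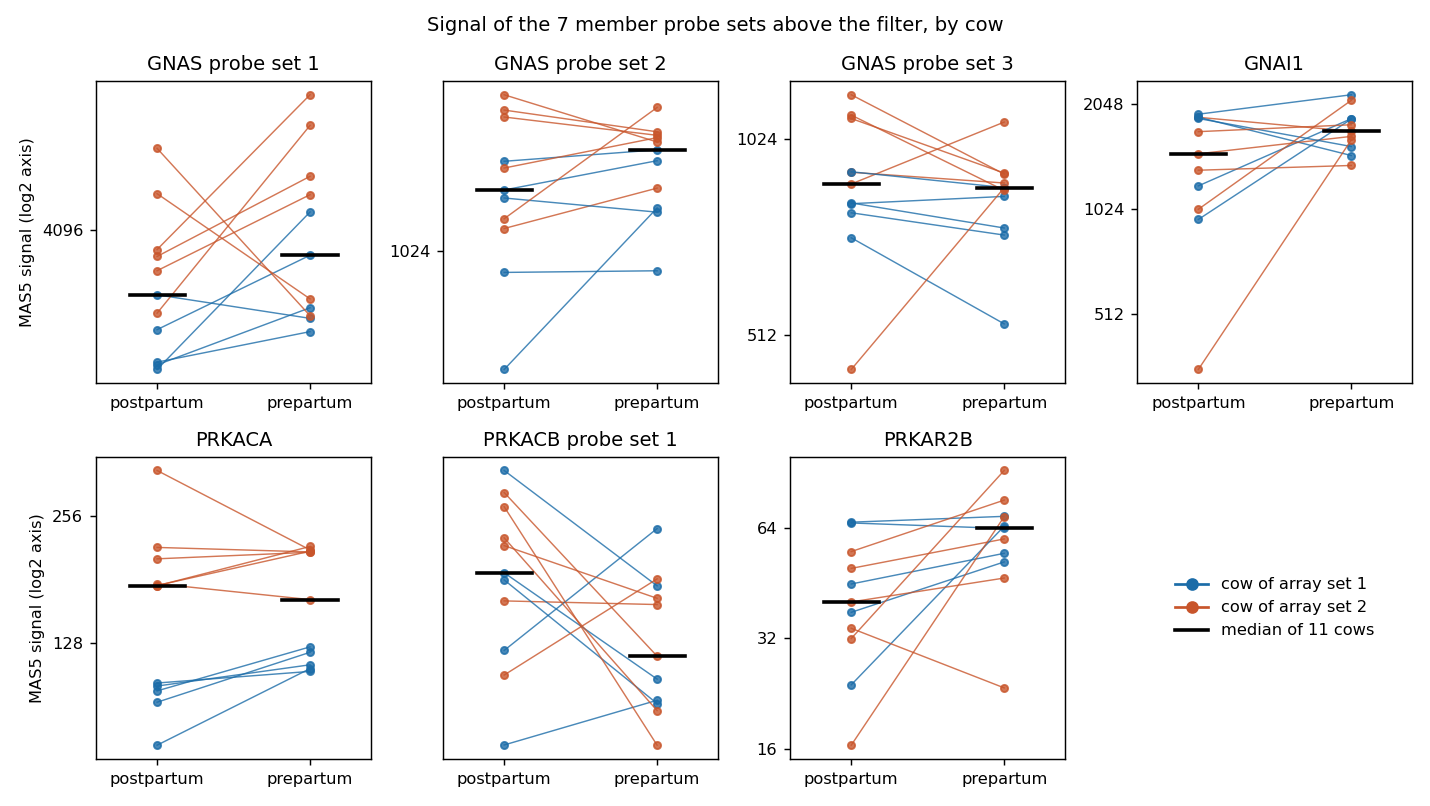
MAS5 signal (log2 axis) of the 7 kept member probe sets, postpartum at the left and prepartum at the right, with 1 line per cow coloured by array set and a bar at the median of 11 cows. The lowest postpartum signal lies below the lowest prepartum one in every probe set shown except PRKACB probe set 1, and it is 16.4 for PRKAR2B and 354 for GNAI1. Signals of PRKACA form 2 separate bands by array set.

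PRKACA (gene 282322) and PRKACB (gene 282323) encode the catalytic subunits Cα and Cβ, which phosphorylate the lipolytic proteins once released. PRKACA had signals of 73.3 to 328 postpartum (median 175) and of 110 to 217 prepartum (median 162). Cow 384 held the highest postpartum signal, 328, on the array with the highest muscle markers, and cow 341 held the lowest. The prepartum array labelled cow 387, with a muscle marker sum of 61253, had a PRKACA signal of 210, within the range of its period. The change was -0.12 (95% interval -0.33 to 0.09, limma adjusted p = 0.531), lower in 8 of 11 cows. Without cows 384 and 387 it was -0.22 (adjusted p = 0.116). Without cows 330, 331, 341 and 382, whose prepartum arrays had the highest keratinocyte sums, the change of PRKACA was -0.01. With the same cows left out, GNAI1 had -0.47, PRKAR2B had -0.35, and the change of PRKACB probe set 1 was 0.18.

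PRKACB probe set 1 had signals of 150 to 226 postpartum (median 194) and of 150 to 208 prepartum (median 171). The periods overlapped over most of their range, and 8 of 11 cows were higher postpartum. The change was 0.14 (95% interval -0.04 to 0.31, limma adjusted p = 0.395), and 0.07 without cows 384 and 387 (adjusted p = 0.646). The dim probe set 2 ran from 1.70 to 30.4 postpartum and from 0.558 to 16.1 prepartum, and its change had the same sign, 0.25 (limma with no filter, adjusted p = 0.567).

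Within cows, the changes of the protein kinase A subunits were set against each other. PRKAR2B and PRKACA shared a sign in 8 of 11 cows and were both lower in 7, PRKAR2B and PRKACB shared one in 5 cows, and PRKACA and PRKACB in 4. The change of PRKAR2B was below that of PRKACB in 8 of 11 cows (mean difference -0.61, SD 0.71) and below that of PRKACA in 7 (mean difference -0.35, SD 0.80). PRKACA was below PRKACB in 8 of 11 cows (mean difference -0.26, SD 0.33). Across kinase and G protein, PRKAR2B and GNAI1 shared a sign in 6 cows, in each of which both were lower. These differences between genes were not tested.

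The cows with the lowest GNAI1 and PRKAR2B changes were also low in adipocyte markers. The log2 ratio of the summed adipocyte markers, postpartum over prepartum, was -1.20 in cow 384, -0.70 in cow 360, -0.56 in cow 382, -0.50 in cow 346 and -0.47 in cow 341. It lay between -0.14 and 0.35 in the other 6 cows, and cow 387, at 0.35, had the highest PRKAR2B change. In cow 384 PRKACA and PRKACB were higher postpartum, by 0.61 and 0.50, while GNAI1 and PRKAR2B were lowest. With the skeletal muscle covariate the mean changes were -0.37 for GNAI1, -0.43 for PRKAR2B, -0.13 for PRKACA and 0.14 for PRKACB. Of the 12 kept adipocyte markers 3 were called by limma, against 3.71% of all genes. Fewer adipocytes and less marker RNA per adipocyte cannot be told apart in this sum. The part of muscle content was not tested further, and that of adipocyte content was not tested.

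**Figure D3:**
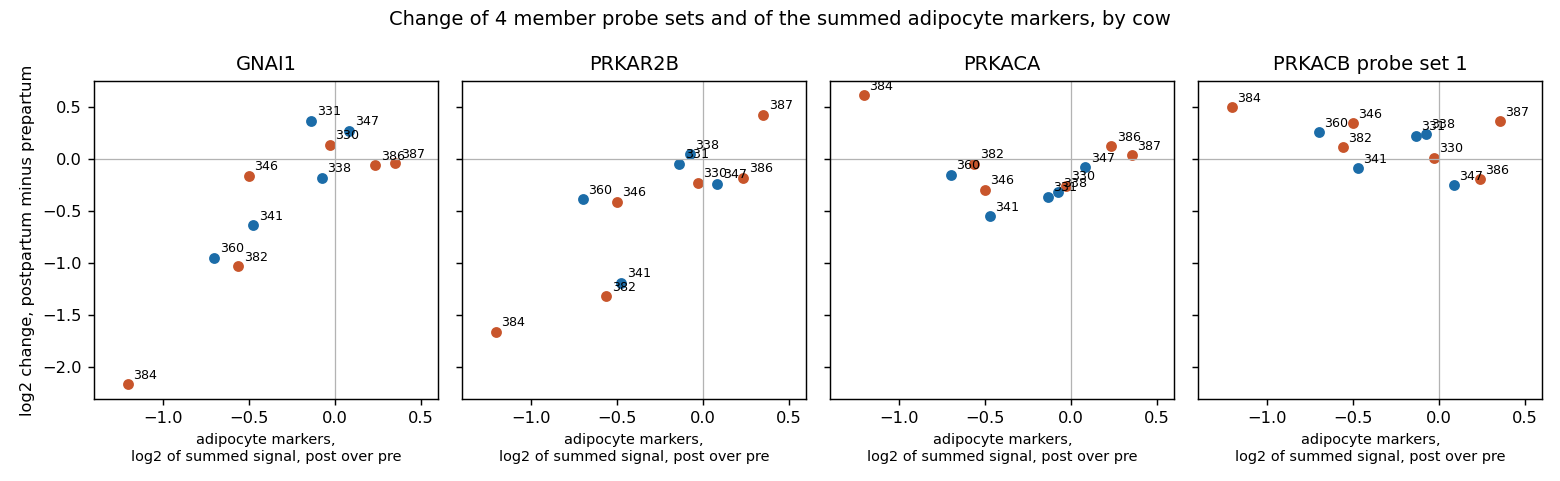
Change of GNAI1, PRKAR2B, PRKACA and PRKACB probe set 1 (log2, postpartum minus prepartum, vertical axis) against the log2 ratio of the 12 summed adipocyte markers (horizontal axis), 1 labelled point per cow, coloured as in the plot of signals by cow. Cow 384 lies at -1.20 on the horizontal axis, with -2.17 for GNAI1 and -1.66 for PRKAR2B against 0.61 for PRKACA and 0.50 for PRKACB.

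The level of PRKACA separated the array sets. Signals of set 2 were 175 to 328 postpartum and 162 to 217 prepartum, against 73.3 to 103 postpartum and 110 to 125 prepartum in set 1, so that no array of set 2 fell within the range of set 1. The mean of both arrays of a cow was 0.93 log2 units higher in set 2 (SE 0.11, 95% interval 0.70 to 1.16), or 1.90-fold (limma on cow means, adjusted p = 0.00033, and 0.000507 without cows 384 and 387). This comparison was chosen after the values per cow were seen, and 15.2% of all kept probe sets were called in it. PRKACB, its paralogue, differed by 0.04 (95% interval -0.15 to 0.22, adjusted p = 0.812), PRKAR2B by -0.18 (adjusted p = 0.565) and GNAI1 by -0.22 (adjusted p = 0.467).

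Among the remaining members, ADRA2A was 1.52-fold higher in set 2 (0.61 log2 units, SE 0.17, limma with no filter, adjusted p = 0.0397), where 8% of all probe sets were called. Its adjusted p was 0.0369 without cows 384 and 387. ADRB3 had a larger difference, 0.66 log2 units or 1.58-fold, that did not pass (adjusted p = 0.233), and ADRB1 had 0.07 (adjusted p = 0.702). Signals of ADRA2A overlapped, with 9.26 to 21.9 postpartum and 3.99 to 22.6 prepartum in set 2, against 2.28 to 13.9 postpartum and 1.62 to 9.67 prepartum in set 1. GNAS probe sets 1, 2 and 3 differed by 0.17, 0.33 and 0.24 (adjusted p = 0.057, 0.0852 and 0.250). Each passed when certain cows were left out. Probe set 1 did without cow 384 (adjusted p = 0.0488) and probe set 2 without cow 331 (0.0463), and neither did without any other single cow. In those fits 2656 and 1861 of all 14410 kept probe sets were called. Probe set 3 passed without cow 384 (0.0231) and without cows 384 and 387 (0.0424), and so did the dim probe set 4 without those 2 cows in the fit with no filter, with the opposite sign (-0.64, adjusted p = 0.036, against -0.38 and adjusted p = 0.351 with all cows). Without cows 384 and 387, 2145 of all 14410 kept probe sets were called, and 1781 of 24016 in the fit with no filter. Since each cow belongs to 1 set, the set and its cows cannot be told apart.

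**Figure D4:**
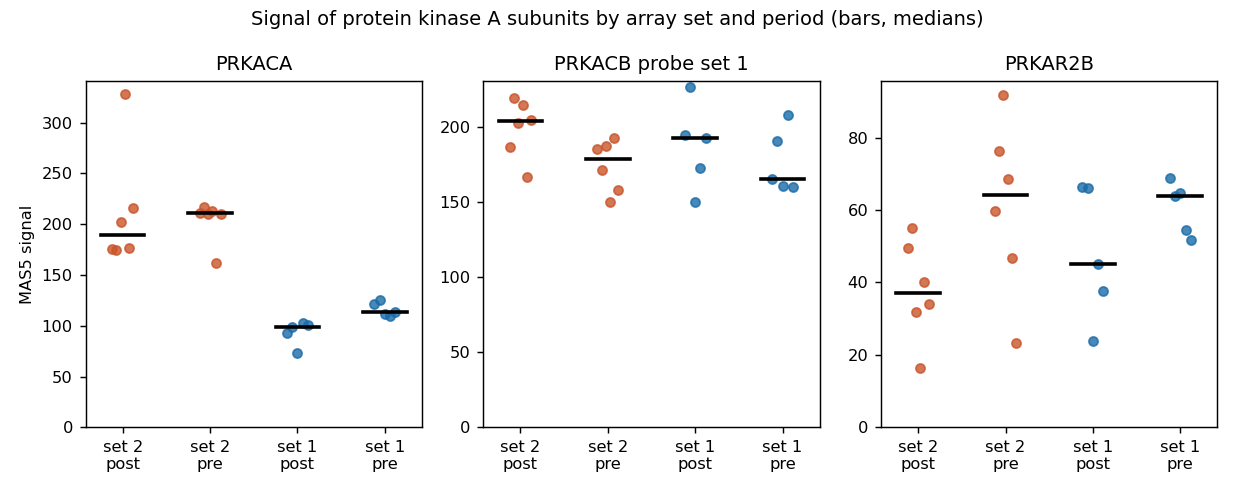
MAS5 signal (linear axis from 0) of PRKACA, PRKACB probe set 1 and PRKAR2B, with the 6 cows of array set 2 left of the 5 cows of set 1 and, within each, postpartum left of prepartum; bars are medians. All PRKACA points of set 2 lie at or above 162 and all those of set 1 at or below 125, whereas the other subunits overlap.

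The postpartum change was also set against the array sets. PRKACA averaged 0.03 in set 2, where 3 of 6 cows were higher, and -0.30 in set 1, where 0 of 5 were. The difference of 0.32 (SE 0.18) did not pass limma's interaction test (adjusted p = 0.997). GNAI1 averaged -0.56 in set 2 and -0.23 in set 1, and PRKAR2B -0.57 in set 2 and -0.37 in set 1. By the same interaction test 0 of 14410 probe sets (0%) were called, while an unadjusted p under 0.05 was reached by 516 of them (3.58%).

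The rest of the pathway was described from lists of 158 further genes. Of these, 95 had a probe set and 78 were kept, with 43 changes above 0 and 35 below. None was called by limma, against 3.71% of all genes, and 18 had an unadjusted p under 0.05, against 20.8% of all genes. Without cows 384 and 387, 6 of the 78 were called (GNG2, ADCY6, PDE2A, PDE9A, AQP7 and INSR), against 8.2% of all genes. The counts of 18 and of 6 are shares near those of the whole array.

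Among other receptors, the α2C receptor ADRA2C was the one adrenergic receptor of 9 that was kept, with a change of -0.05 (limma adjusted p = 0.847). Of 12 other stimulatory receptors 2 were kept, and the larger change was that of PTGER4, a prostaglandin E2 receptor, at 0.26 (adjusted p = 0.260). Of 11 antilipolytic receptors that couple to inhibitory G proteins 4 were kept, all with changes below 0, and 3 of the 4 without cows 384 and 387. The adenosine receptor ADORA1, through which adenosine restrains lipolysis, had the largest of them, at -0.10 (adjusted p = 0.703).

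Of 22 heterotrimeric G protein subunits 14 were kept, GNAS and GNAI1 among them, and 13 had a change below 0 (median -0.08), as did 47.4% of all genes. The count was 11 of 14 without cows 384 and 387 (median -0.05). The summed adipocyte markers were lower in 8 of 11 cows, and their part in these signs was not tested. GNG2, a γ subunit, had signals of 77.3 to 276 postpartum (median 121) and of 143 to 258 prepartum (median 188), with a change of -0.52 (SE 0.16, limma adjusted p = 0.0904, and 0.0411 without cows 384 and 387). GNG10, another γ subunit, named after its values were seen, was lower in 11 of 11 cows, with a change of -0.30 (SE 0.09, adjusted p = 0.0977).

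Of 11 adenylyl cyclase genes, a list that includes the cyclase-associated CAP1, 5 were kept. ADCY6, an isoform that calcium and protein kinase A inhibit, had signals of 84.3 to 264 postpartum (median 165) and of 164 to 347 prepartum (median 257). Its change was -0.63 (SE 0.18, limma adjusted p = 0.0734), lower in 8 of 11 cows. A second ADCY6 probe set had a change of -0.43 (adjusted p = 0.149). Neither passed in the fit over 11 cows, and the other cyclases lay on both sides of 0.

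Of 9 protein kinase A subunits and inhibitors 7 were kept, 5 with changes above 0 and 4 without cows 384 and 387. PRKAR2A, the RIIα subunit and paralogue of PRKAR2B, was named after its values were seen. Its signals ran from 1055 to 2463 postpartum (median 1719) and from 1085 to 1645 prepartum (median 1323), higher in 9 of 11 cows, with a change of 0.33 (SE 0.11, limma adjusted p = 0.105). That sign is opposite to that of PRKAR2B, and neither passed the test. Of 13 A-kinase anchoring proteins 5 were kept, and AKAP5 had the largest change, 0.42 (adjusted p = 0.513). AKAP5 had 0.10 without cows 384 and 387, and AKAP8, named after its values were seen, was then the largest at -0.18.

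Of 18 cyclic nucleotide phosphodiesterases 6 were kept, 5 with changes above 0 and 3 without cows 384 and 387. PDE9A, which hydrolyses cyclic GMP rather than cyclic AMP, had the largest change, 0.50 (SE 0.16, limma adjusted p = 0.0897), higher in 9 of 11 cows. PDE2A, which hydrolyses both messengers and was named after its values were seen, had signals of 88.4 to 351 postpartum (median 176) and of 58.6 to 225 prepartum (median 159). It was higher in 10 of 11 cows, with a change of 0.45 (SE 0.12, adjusted p = 0.0609).

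Of 18 genes of receptor desensitisation and G protein regulation 13 were kept, and 12 had a change above 0 (median 0.14, against 0.01 over all genes, of which 52.6% were above 0). The count was 11 of 13 without cows 384 and 387 (median 0.17). RGS10, which speeds GTP hydrolysis on inhibitory α subunits, had the largest, 0.47 (SE 0.24, limma adjusted p = 0.293). Several genes of this list are also expressed in immune cells, and the summed macrophage markers were 2537 to 13173 postpartum (median 5184) and 2573 to 6299 prepartum (median 4046), higher in 7 of 11 cows. The part of immune cells in these values was not tested. All 13 genes were read on the same 11 pairs of arrays, so that their signs are not independent of each other.

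Genes listed downstream of cyclic AMP had no common sign. Of 21 genes listed under cyclic AMP responsive transcription 14 were kept, 8 with changes above 0 (median 0.03). The list holds transcription factors and coactivators, such as ATF1 and CREBBP, so its signs do not measure cyclic AMP output. The immediate early gene FOSB had the largest change, -0.44 (SE 0.15, limma adjusted p = 0.116), but a second FOSB probe set had 0.06 (adjusted p = 0.943). RAPGEF3, the cyclic AMP activated exchange factor EPAC1, was the one kept of 5 other effectors, with a change of 0.25 (SE 0.09, adjusted p = 0.149).

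Of 10 lipolytic effectors 7 were kept. AQP7, the channel through which glycerol leaves the fat cell, had signals of 265 to 1168 postpartum (median 745) and of 618 to 1563 prepartum (median 1181), with a change of -0.69 (SE 0.19, limma adjusted p = 0.0597). It is also an adipocyte marker, as are LIPE, PNPLA2, CIDEC, CIDEA and FABP4 of the same list. AQP7 was lower in 9 of 11 cows. The substrate of the kinase, hormone-sensitive lipase LIPE, had changes of 0.13, 0.42 and 0.20 in 3 probe sets (adjusted p = 0.754, 0.327 and 0.644). The brightest of them had 0.31 without cows 384 and 387 (adjusted p = 0.177). The triglyceride lipase PNPLA2 had -0.20 (adjusted p = 0.512). ABHD5, the coactivator of PNPLA2, was below the filter, and PLIN1 had no probe set with that single symbol. Of 10 genes that carry insulin's signal towards PDE3B 5 were kept, and INSR, the insulin receptor, had changes of 0.29 and 0.27 in 2 probe sets (adjusted p = 0.231 and 0.424).

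**Figure D5:**
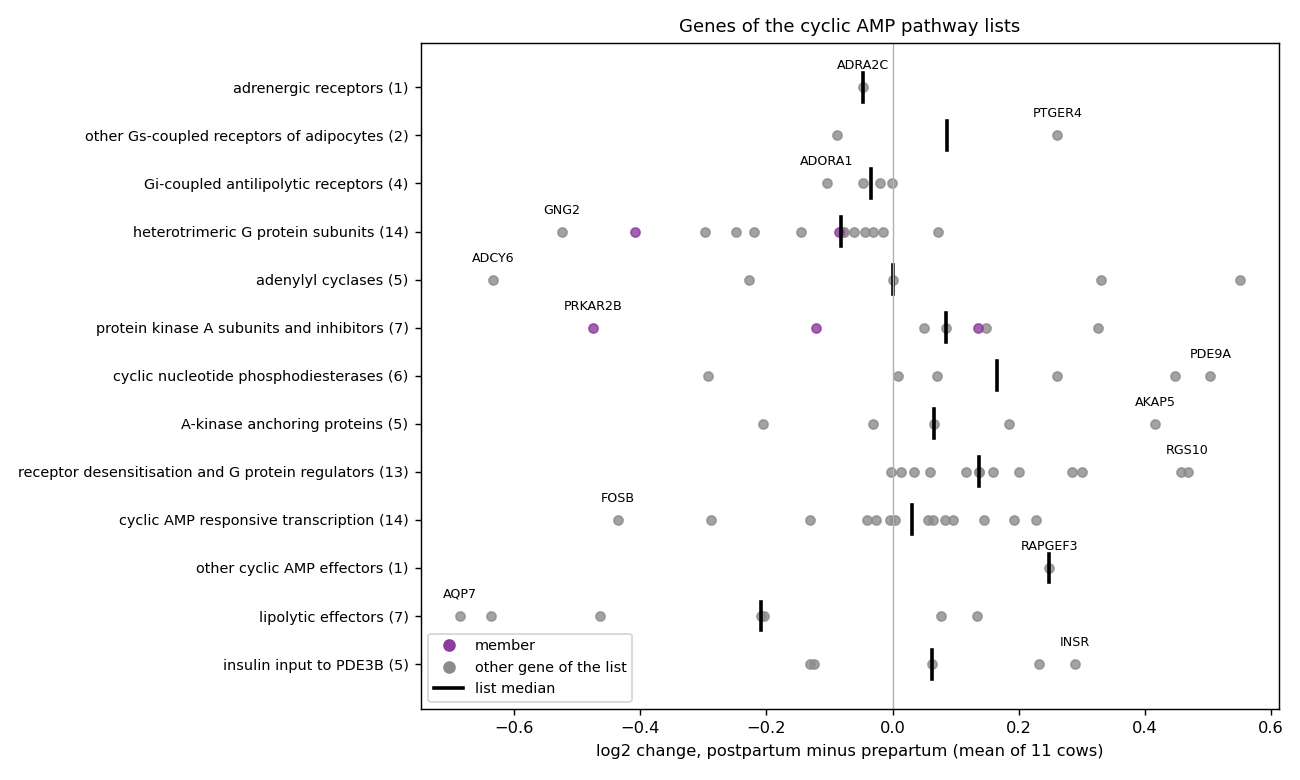
Mean log2 change (postpartum minus prepartum, 11 cows) of every kept gene of the 13 pathway lists, with the number kept in brackets, members in purple, other genes in grey, a bar at the list median, and the gene with the largest change named. No gene shown was called; 13 of 14 G protein subunits lie below 0 and 12 of 13 desensitisation genes above it.

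The genes whose paired changes followed those of the members most closely were found by Pearson correlation over 11 cows, all read on the same arrays, as a description. GNAI1 was closest to PPP1R1B, an inhibitor of protein phosphatase 1 (r = 0.97, and 0.93 over 9 cows without cows 384 and 387), and to the membrane scaffold MPP1 (0.96 and 0.96). PRKAR2B was closest to IDH1, the cytosolic isocitrate dehydrogenase (0.97 and 0.94), and to the collagen chain COL5A3 (0.96 and 0.95). Neither of those 2 genes passed limma's test, with changes of -0.65 (adjusted p = 0.0868) and -0.90 (adjusted p = 0.0836).

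The remaining members had neighbours of other kinds. PRKACA was closest to the ATP synthase subunit ATP5F1D (r = 0.94, and 0.87 over 9 cows) and the retinoid X receptor RXRA (0.90 and 0.80). PRKACB was closest to the deubiquitinase CYLD (0.89 and 0.95) and the nuclear pore protein NUP50 (0.86 and 0.79). GNAS probe set 1 was closest to MGP, the matrix Gla protein (0.92 and 0.89), and the ceramide synthase CERS5 (0.92 and 0.88). Each was picked as the highest of all kept genes, and none of these 6 changed past the threshold.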

How the data were processed

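The deposited values are MAS5 signal intensities, per the submitters' processing notes. For the MAS5 version and the genome build, the sources used here give nothing. A mean trimmed by 2% at both ends came to 125 for each of the 22 arrays, and array medians ran from 39.9 to 47.4. The number of arrays limits the precision. Of 24128 probe sets, 112 controls were left out. Symbols came from the platform annotation, updated through RefSeq gene identifiers. From these intensities log2(signal + 7.78) was computed, 7.78 being the median of the arrays' 20th percentiles. limma 3.58.1 in R 4.3.3 was fitted with an intensity trend and cow as a fixed block, and adjusted p-values are Benjamini-Hochberg over all probe sets fitted. Where a gene had several kept probe sets, the brightest stood for it.

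The series design and the cow numbers in the titles pair the samples. Deviations from the group means correlated at 0.18 to 0.43 within 10 cows and at -0.09 for cow 387.

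Members and lists were chosen with earlier results of these data known. Besides the members, the genes named are, in each list without a call, the kept gene with the largest change, then LIPE, PNPLA2, ABHD5 and PLIN1, and the 2 nearest genes per kept member. GNG10, PRKAR2A, PDE2A and AKAP8 were named outside that rule, after their values were seen. In simulated data of 14410 probe sets, limma recovered 92.0% of the 100 with a change of 1 log2 unit and 43.0% of the 100 with a change of 0.5, and 13 of its 148 calls were false. The simulated noise was normal, independent between arrays and probe sets, and had the residual spread of each probe set. It held no outlying arrays and no shared tissue differences, so these shares need not hold for the measured arrays. Alternatives varied block, scaling, constant, filter, weights, array set and left-out cows. Figures used matplotlib 3.10.9 in Python 3.11.15.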

Additional observations from a re-analysis of the deposited data

How the results depend on the processing

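For the postpartum change, no member was called under any alternative that fitted it. The dim member probe sets were fitted in 2 settings only, both with no filter. Signs of the kept members' changes held in every fit they entered, except in array set 2 by itself. There GNAS probe set 3 had a change of -0.0194 and PRKACA of 0.0258. An exact sign-flip test, run on the member probe sets only, put PRKAR2B (-0.47) at an unadjusted p under 0.05. The background count of 494 called probe sets moved widely. Without the replicate block it was 338, and array weights gave 1076. Cows of set 1 by themselves gave 69 calls and those of set 2 gave 0, where 1526 probe sets reached an unadjusted limma p under 0.05. It was 1070 when cows 384 and 387 were dropped, 802 when the filter was dropped too, and 6 when cows 330, 331, 341 and 382 were dropped. With 1 cow dropped at a time the count ran from 242 (cow 382) to 969 (cow 384), and it was 247 for cow 346, 263 for cow 341, 265 for cow 360, 280 for cow 330 and 314 for cow 347. The level comparison of the array sets, 2188 probe sets, ranged from 1349 (cow 347 dropped; 1379 for cow 338) to 2656. In it PRKACA was called under every alternative, and GNAS probe sets passed without certain cows. The cause of these shifts was not tested. That comparison with its alternatives, and dropping the filter together with 2 cows, were chosen after the data were seen. Low signal limits ADRB1, ADRB3 and ADRA2A.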
